A study of Homo sapiens with 688 samples.

Results

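The immediate early genes analysed here were 10 of the 28430 gene symbols counted in the BT20 tables and of the 23710 counted in the U87 and LnCAP tables. They were chosen by symbol: the Fos genes FOS, FOSB, FOSL1 and FOSL2, the Jun genes JUN, JUNB and JUND, the zinc finger factor gene EGR1, and IER2 and IER3. Levels are given in CPM, counts of a gene scaled to a library of 1000000 counts, and changes as log2 fold changes ± their standard error (SE). A gene was called changed at an adjusted p under 0.05 in edgeR's quasi-likelihood test (for U87 compound classes and the U87 vehicle, a Wald test in the same edgeR fit), with Benjamini-Hochberg adjustment over every gene tested.

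The series holds 688 libraries of 3 human cell lines. BT20 breast carcinoma cells were treated for 6 h on a 96-well plate with mitoxantrone hydrochloride at 0.18 µM, crizotinib at 7.16 µM, albendazole at 0.56 µM, idarubicin HCl at 0.084 µM, aprepitant at 2 µM, gemcitabine HCl at 0.194 µM, bortezomib at 0.044 µM or the vehicle DMSO, with 12 wells a condition. Each well was read by PLATE-Seq, which captures polyadenylated RNA and counts the 3′ ends of transcripts after barcoding every well, and 16 TruSeq libraries of pooled wells, 2 a condition, were made from the same plate. U87 glioblastoma cells were treated for 24 h with 184 compounds on 2 sets of plates, PS1 and PS4, with 1 well of each compound on plate A and 1 on plate B, and 2 DMSO and 2 untreated wells on every plate. LnCAP prostate carcinoma cells were untreated, and the 96 wells of plate A1 and the 96 of plate A2 came from split lysates. The labels give the dose for BT20 and U87 as that which left 80% of cells viable after 48 h, whereas the study's methods describe U87 doses by growth inhibition. Within a line each compound was given at 1 dose, and compounds given to both lines had different doses in each. Library totals ran from 367848 to 1317952 counts on the BT20 plate, 16881740 to 29068232 in the TruSeq pools, 17063 to 1537549 on the U87 plates and 19448 to 1277169 on the LnCAP plates.

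Fos proteins pair with Jun proteins to form the transcription factor AP-1, whereas Jun proteins can also pair with each other. Growth factors, serum and stress switch these genes on within minutes and without new protein synthesis, through kinases of the ERK pathway that act on SRF and its ETS partners and through the stress kinases that act on JUN itself. FOSL1 and FOSL2 follow later and last longer than FOS. Treated samples were taken at 6 h in BT20 and at 24 h in U87 only, so the first minutes after a drug were not sampled. According to the labels, medium was replaced by serum with DMSO before BT20 and U87 plates were frozen, in drug and control wells alike. Serum is itself an inducer of these genes, and its part in the levels was not tested.

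In the genome build GRCh37 (gene models from GENCODE), JUN lies at chr1:59242517-59249720 on the minus strand, JUND at chr19:18390504-18392432 on the minus strand and JUNB at chr19:12902300-12904129 on the plus strand, each with 1 exon. FOS lies at chr14:75745529-75748933 and FOSB at chr19:45971253-45978437 on the plus strand, FOSL1 at chr11:65659520-65668044 on the minus strand and FOSL2 at chr2:28615315-28640184 on the plus strand, each with 4 exons. EGR1 lies at chr5:137801168-137804992 and IER2 at chr19:13261225-13265725 on the plus strand, and IER3 at chr6:30710976-30712325 on the minus strand, each with 2 exons.

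Promoter windows of RefSeq, from 250 bases before to 50 after the gene start in the build GRCh38.p14, were at hand for 8 of the 10 genes and not for FOSL1 and IER3. The 250 bases before the start are shown for JUN, JUND and EGR1. Capitals mark a CRE-like sequence (TGACATCA, bound by Jun and ATF dimers) for JUN, a CRE (TGACGTCA) for JUND and a pair of CArG boxes, the element bound by SRF, for EGR1. The windows shown are chr1:58784048-58784297 on the minus strand for JUN, chr19:18281623-18281872 on the minus strand for JUND and chr5:138465229-138465478 on the plus strand for EGR1, each 5′ to 3′ on the gene's strand.
JUN: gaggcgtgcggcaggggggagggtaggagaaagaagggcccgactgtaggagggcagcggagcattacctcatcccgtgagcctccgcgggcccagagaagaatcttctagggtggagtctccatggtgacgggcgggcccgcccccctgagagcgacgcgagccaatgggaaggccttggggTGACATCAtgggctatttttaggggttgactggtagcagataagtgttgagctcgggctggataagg
JUND: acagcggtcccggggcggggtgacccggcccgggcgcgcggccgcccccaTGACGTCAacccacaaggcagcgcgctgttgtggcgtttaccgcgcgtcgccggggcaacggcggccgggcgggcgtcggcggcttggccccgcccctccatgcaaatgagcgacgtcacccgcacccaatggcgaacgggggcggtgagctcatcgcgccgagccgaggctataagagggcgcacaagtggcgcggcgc
EGR1: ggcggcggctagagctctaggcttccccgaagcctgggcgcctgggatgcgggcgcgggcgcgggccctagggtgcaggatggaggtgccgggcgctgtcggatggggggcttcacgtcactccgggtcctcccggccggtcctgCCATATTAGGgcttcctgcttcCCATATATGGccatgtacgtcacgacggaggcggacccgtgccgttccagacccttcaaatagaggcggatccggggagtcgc

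Searched on both strands, TGACATCA was present in 2.61% of the 35116 RefSeq promoter windows, TGACGTCA in 1.85% and a CArG box in 1.29%. The AP-1 sequence TGACTCA, in 4.95% of windows, was found only in the FOSL2 window among the 8 genes. The letters TATAAA, in 11.5% of windows, were found for FOS, FOSB and JUNB. The EGR sequences GCGGGGGCG, in 5.07% of windows, and GCGTGGGCG, in 0.795%, were found in 0 of the 8. These matches describe letters only.

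Among the drugs given to BT20 cells for 6 h, bortezomib, an inhibitor of the proteasome, raised 4 of the 7 genes tested in PLATE-Seq (JUN, FOSL1, IER3 and JUND), against 4.93% of all 6330 genes called and 2.94% called higher. The other 6 drugs changed 0 of 40 pairs of a drug and a gene, with 6 pairs at an unadjusted p under 0.05 in edgeR and 1 pair, JUND with idarubicin, called by DESeq2. The share of all genes called for these drugs was 2.78% for idarubicin, 2.05% for crizotinib, 1.21% for mitoxantrone, 0.100% for albendazole, and 0% for aprepitant and gemcitabine. FOS, FOSB and JUNB were under the minimum count for testing in every comparison, and EGR1 in those of crizotinib and mitoxantrone. Over all 7 drugs, 1.59% of gene and drug pairs were called.

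JUN, the founding Jun gene, had 0.974, 16.9 and 42.2 CPM as its lowest, median and highest values among 12 DMSO wells. Among 12 bortezomib wells the same 3 values were 94.0, 136 and 192 CPM. Every bortezomib well lay above every DMSO well, and the log2 fold change was 3.03 ± 0.24 (adjusted p = 6.2e-13). FOSL1, which encodes the Fos protein FRA-1, had 28.8, 61.8 and 123 CPM as its lowest, median and highest DMSO values and 180, 198 and 269 CPM under bortezomib. These groups did not overlap either, and the log2 fold change was 1.81 ± 0.15 (adjusted p = 3.1e-15).

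IER3, a stress-responsive gene linked to cell survival, had 25.7, 58.3 and 89.7 CPM as its lowest, median and highest values in DMSO and 53.9, 87.3 and 151 CPM under bortezomib. The ranges overlapped, with 5 of 12 bortezomib wells above all DMSO wells, and the log2 fold change was 0.74 ± 0.18 (adjusted p = 0.0052). JUND, the Jun gene with the steadiest expression in most cells, had 39.4, 62.5 and 75.0 CPM in DMSO and 60.3, 77.1 and 120 CPM under bortezomib. Its log2 fold change was 0.63 ± 0.16 (adjusted p = 0.0063), and 6 of 12 bortezomib wells were above all DMSO wells. EGR1 had a log2 fold change of 0.75 ± 0.35 that did not pass the adjustment (adjusted p = 0.27). FOSL2 and IER2 had log2 fold changes of 0.12 ± 0.21 and 0.22 ± 0.39, neither of them called. In these bulk wells, a change in RNA per cell and a change in which cells remain cannot be told apart.

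FOS, the gene of the classical partner of JUN in AP-1, was close to the detection limit on the plate. It had 11 counts over the 12 DMSO wells, 8 of which were at 0, and 88 counts over the 12 bortezomib wells, none of which was at 0. The DMSO wells reached 8.16 CPM and the bortezomib wells ran from 0.984 to 14.2 CPM, so the ranges overlapped. With the minimum count removed, the log2 fold change was 2.75 ± 0.73 (adjusted p = 0.0119). JUNB moved the other way under crizotinib, an inhibitor of MET and ALK kinases. Its median was 8.66 CPM in DMSO and 1.52 CPM under crizotinib, and 8 of 12 crizotinib wells were below all DMSO wells. In the test without the minimum count this difference was -1.37 ± 0.57 on the log2 scale and was not called (adjusted p = 0.209).

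**Figure D1:**
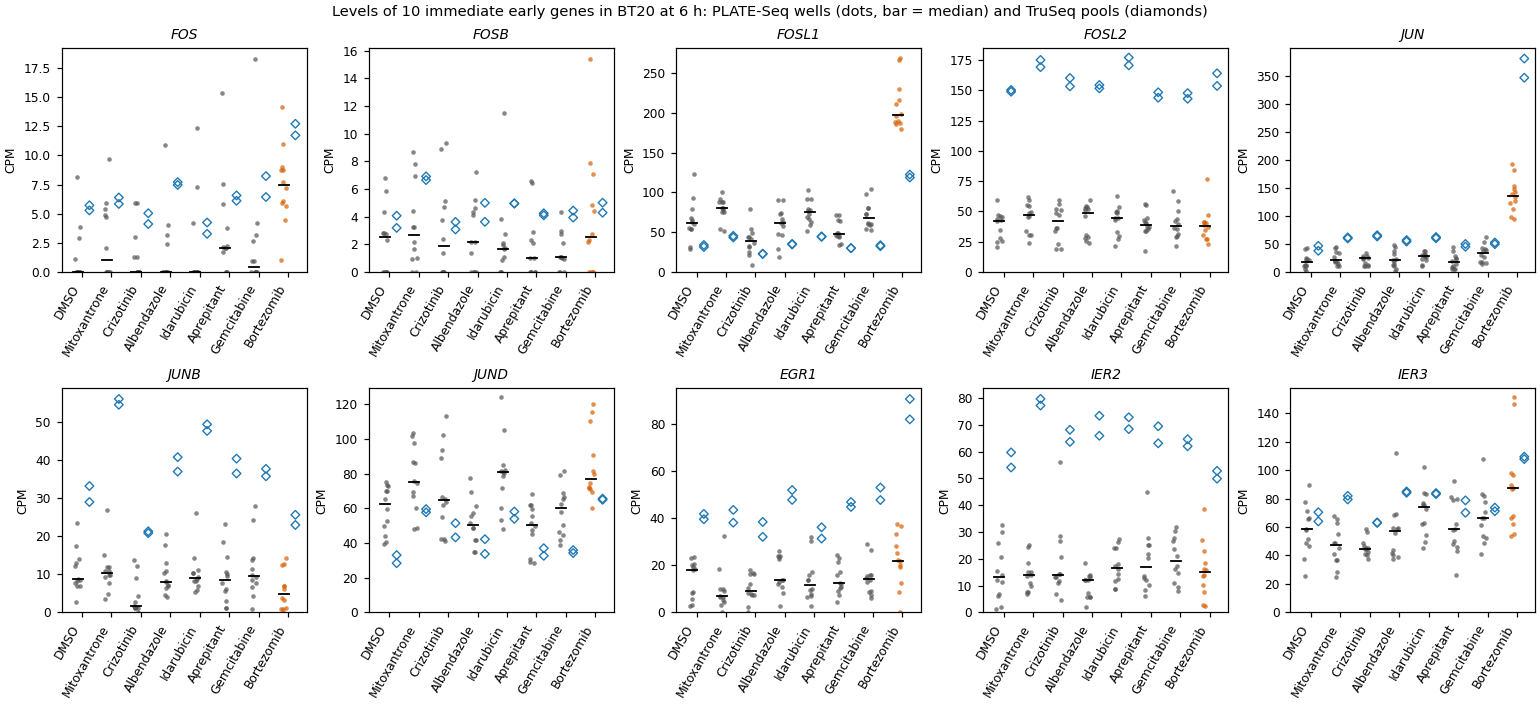
Levels in CPM of the 10 genes (one panel a gene, linear axis from 0) in BT20 cells after 6 h, by drug; dots are the 12 PLATE-Seq wells of a condition, the bar is their median and open diamonds are the 2 TruSeq pools. JUN in bortezomib wells sat between 94.0 and 192 CPM, above all DMSO wells, and the pools at 346 and 380 CPM against 37.6 and 46.5 CPM.

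In the TruSeq pools, in which a gene had many more counts, 41 of 70 pairs of a drug and a gene were called, against 23.5% of all gene and drug pairs. Of the 41, 36 were higher and 5 lower, and the same DMSO pools served as control for every drug. All pools came from 1 plate and their wells are not named, so these p-values measure the spread between pools only. Bortezomib changed 9 of 10 genes, 8 higher and JUNB lower, where 40.8% of all genes were called, 21.3% higher and 19.6% lower. JUN was at 37.6 and 46.5 CPM in the DMSO pools and at 346 and 380 CPM in the bortezomib pools, which is 3.19 ± 0.07 on the log2 scale (adjusted p = 1.6e-23). FOSL1 was at 31.3 and 33.8 CPM in DMSO and at 122 and 119 CPM under bortezomib, or 1.96 ± 0.05 on that scale (adjusted p = 2.7e-24). In neither gene did the pools overlap.

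Among the genes too low to test on the plate, FOS was at 5.28 and 5.72 CPM in the DMSO pools and at 11.7 and 12.7 CPM under bortezomib, a rise of 1.22 ± 0.12 on the log2 scale (adjusted p = 5.2e-10). EGR1, which was not called on the plate, was at 39.5 and 41.8 CPM in DMSO and at 81.9 and 90.6 CPM under bortezomib, a rise of 1.16 ± 0.08 (adjusted p = 8.4e-12). The remaining rises under bortezomib were JUND at 1.16 ± 0.09, IER3 at 0.76 ± 0.05, FOSB at 0.43 ± 0.16 and FOSL2 at 0.16 ± 0.04 on the log2 scale. JUNB fell from 29.0 and 33.2 CPM to 25.6 and 22.9 CPM, a log2 change of -0.28 ± 0.08 (adjusted p = 0.0026), opposite in sign to JUN and JUND. Calls for JUNB, FOSB and FOSL2 did not all survive leaving out a pool: JUNB had -0.22 without the second bortezomib pool and -0.19 without the second DMSO pool, FOSB had 0.31 without the second bortezomib pool and 0.27 without the first DMSO pool, and FOSL2 had 0.12 without the first bortezomib pool, none of them called. IER2, at 54.1 and 59.8 CPM in DMSO and 52.8 and 49.9 CPM under bortezomib, was not called.

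With the topoisomerase II poisons mitoxantrone and idarubicin the order of genes in the pools was different, and JUND led in place of JUN. Mitoxantrone raised 8 of 10 genes (30.8% of all genes called, 15.6% higher), led by JUND at 0.89 ± 0.09, FOSB at 0.86 ± 0.15 and JUNB at 0.79 ± 0.07 on the log2 scale, while FOS and EGR1 were not called. JUNB was at 56.0 and 54.5 CPM under mitoxantrone and at 49.4 and 47.7 CPM under idarubicin, above both DMSO pools. Idarubicin changed all 10 genes (37.4% of all genes called, 18.9% higher and 18.4% lower), with 8 higher, led by JUND at 0.85 ± 0.09, and with FOS and EGR1 lower. FOS was at 4.24 and 3.27 CPM under idarubicin, a log2 change of -0.57 ± 0.15 (adjusted p = 0.0029). EGR1 had a log2 change of -0.29 ± 0.09 (adjusted p = 0.0098). On the plate JUND did not lead JUN, and neither was called in edgeR for these drugs. There JUN had 0.60 ± 0.30 and JUND 0.49 ± 0.16 under idarubicin, and 0.46 ± 0.32 and 0.43 ± 0.16 under mitoxantrone.

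Crizotinib changed 5 of 10 genes, close to the 42.2% of all genes called, 21.6% higher and 20.6% lower. JUND rose by 0.67 ± 0.10, JUN by 0.65 ± 0.08 and IER2 by 0.25 ± 0.06 on the log2 scale, whereas JUNB had -0.52 ± 0.08 and FOSL1 -0.48 ± 0.07. Albendazole, which binds tubulin, had 7 of 10 genes called higher in the pools (11.3% of all genes called, 7.00% higher), from 0.47 ± 0.14 for FOS to 0.30 ± 0.06 for IER2. On the plate, 0 of 7 genes tested were called for albendazole, with 0 at an unadjusted p under 0.05 in edgeR (0.100% of all genes called). Aprepitant, a neurokinin receptor antagonist, had JUNB higher by 0.32 ± 0.07 and IER2 by 0.24 ± 0.06 in the pools (1.82% of all genes called, 1.22% higher). Gemcitabine, a nucleoside analogue, changed 0 of 10 genes in edgeR, with 7 at an unadjusted p under 0.05, and 0 in DESeq2 (0% of all genes called in edgeR). In the pools the median log2 change of the 10 genes was 0.31 for albendazole, 0.22 for gemcitabine and 0.19 for aprepitant. The medians over all genes were 0.0061, -6.4e-04 and 0.0069. These drugs share the same DMSO pools, and the part of those pools in the rises with albendazole and aprepitant was not tested. DESeq2 lost the calls of FOS with albendazole, IER2 with aprepitant, and FOSB with bortezomib and with idarubicin.

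Of 47 pairs tested by both assays, 42 had a difference between assays of which the 95% interval held 0, 4 were called in both and 25 in TruSeq only. JUND accounted for 4 of the other 5 pairs, with a lower value on the plate each time, as under bortezomib, where the plate gave 0.63 ± 0.16 and the pools 1.16 ± 0.09. Both assays used the same treated wells, so they check the reading and not the treatment.

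**Figure D2:**
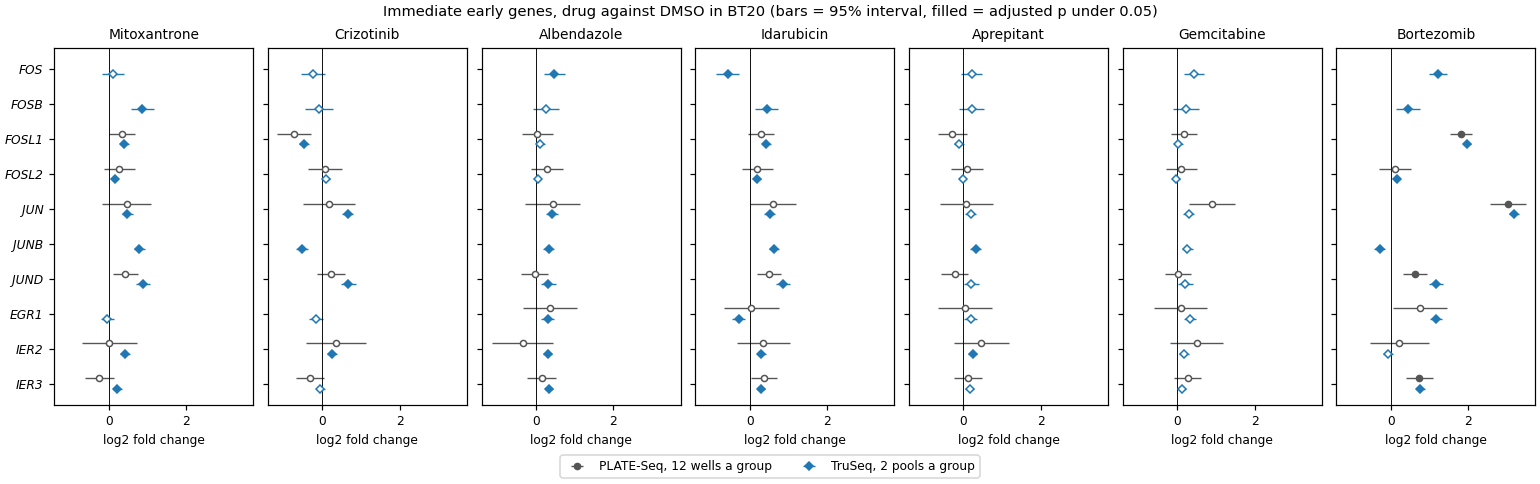
Log2 fold change against DMSO (x axis) of the 10 genes (y axis) in BT20 for each of the 7 drugs, by PLATE-Seq (grey circles) and TruSeq (blue diamonds); bars are 95% intervals and filled symbols have an adjusted p under 0.05. Under bortezomib JUN lay at 3.03 and 3.19 and FOSL1 at 1.81 and 1.96, while JUNB in the pools lay at -0.28.

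Related genes were read from 5 lists of 62 genes: AP-1 partners, other immediate early factors, feedback regulators, targets of AP-1 and EGR, and upstream kinases and factors. On the plate, bortezomib changed 4 of 29 list genes tested, 2 in each direction, where 4.93% of all genes were called. DUSP1, the phosphatase that switches off stress and ERK kinases, rose by 2.44 ± 0.44 and ZFP36L1, an RNA decay factor, by 1.06 ± 0.09 on the log2 scale. ZFP36L2, its close relative, had -0.77 ± 0.16, and the matrix gene THBS1 -0.44 ± 0.12. In the pools bortezomib raised 26 and lowered 11 of 57 list genes (40.8% of all genes called), with a median log2 change of 0.13 against 0.00 over all genes. The largest rises were EGR4 at 3.34 ± 0.50 (1.16 CPM against 0.115 CPM) and the stress factor ATF3 at 2.57 ± 0.09, and the largest falls were the EGR1 co-repressor gene NAB2 at -0.68 ± 0.09 and CCND1 at -0.48 ± 0.04. The upstream kinases and factors, which include SRF, had 3 higher and 2 lower of 12. On the plate, crizotinib raised KLF6 by 0.82 ± 0.20 and CD44 by 0.59 ± 0.12 and lowered THBS1 (-0.93 ± 0.13), which made 3 of 27 list genes (2.05% of all genes called), and idarubicin changed ZFP36L2 alone of 29 (2.78% called). In the pools, crizotinib raised 20 and lowered 11 list genes (42.2% of all genes called). The largest rises were the AP-1 partner gene MAF at 1.56 ± 0.23 and DUSP10 at 1.27 ± 0.14. EGR2 was among the genes that fell, at -1.46 ± 0.57 (0.193 CPM against 0.562 CPM). Idarubicin raised 20 and lowered 11 (37.4% called), and mitoxantrone raised 19 and lowered 8 (30.8% called). EGR4 and IL8 rose most with both, at 1.85 ± 0.63 and 1.62 ± 0.29 under idarubicin and 2.72 ± 0.56 and 1.46 ± 0.30 under mitoxantrone. EGR4 was low throughout, at 0.436 CPM under idarubicin and 0.810 CPM under mitoxantrone against 0.115 CPM.

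In U87 cells at 24 h, 100 of 1840 pairs of a compound and a gene were called against the 4 DMSO wells of the same set, 57 higher and 43 lower, which is 5.43% against 2.64% of all gene and compound pairs (1.22% higher and 1.42% lower). In 84 of the 100, both compound wells lay beyond all 4 DMSO wells. The calls came from 55 of 184 compounds, 22 of which moved 2 or more of the genes. With plates A and B not held apart in the fit, 30 pairs were called, and with a single plate of each set, 32 or 52. FOSL1 was called for 25 compounds (11 higher, 14 lower), IER3 for 19 (9 and 10), EGR1 for 11 (7 and 4), JUND for 10 (3 and 7) and JUN for 9 (7 and 2). FOSB, FOSL2, JUNB and IER2 were called for 6 each and FOS for 2. A gene's median change over the 184 compounds was not 0, at 0.39 for JUNB, 0.35 for FOSB and -0.23 for JUND on the log2 scale, and all compounds of a set share the same DMSO wells.

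**Figure D3:**
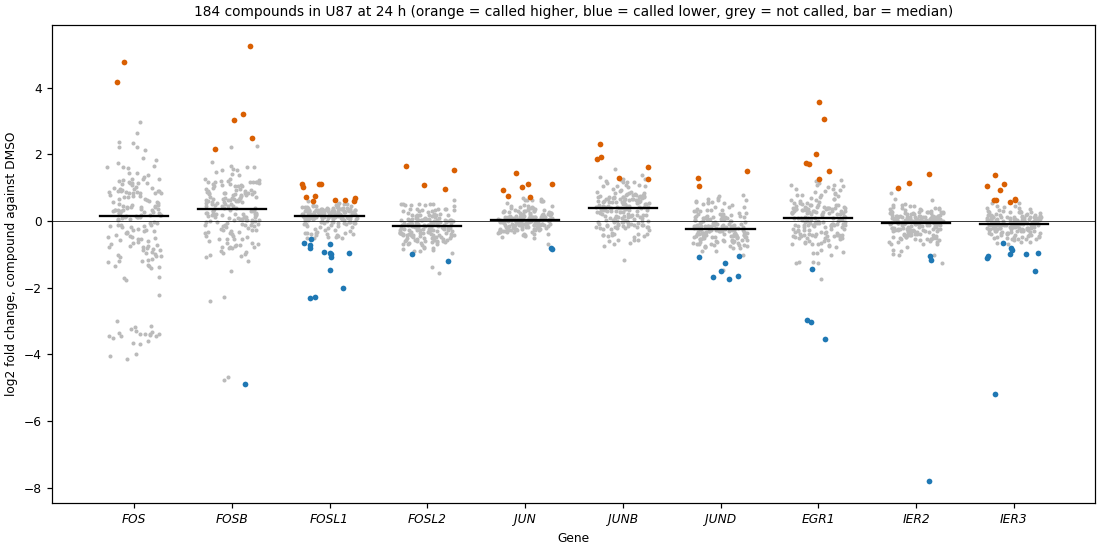
Log2 fold change against DMSO (y axis) of each of 184 compounds in U87 at 24 h, by gene (x axis); orange dots were called higher, blue dots lower and grey dots not called, and bars are medians over compounds. FOSL1 and IER3, called for 25 and 19 compounds, have the most coloured dots, and the lowest values of FOS, FOSB and IER2 come from compounds with 0 counts in both wells.

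How well the 2 wells of a compound matched differed by gene. Over the 184 compounds, with log2(CPM + 1) centred on the median of its plate, plates A and B correlated with Pearson's r of 0.786 for FOSL1 (Spearman's rho 0.675), 0.731 for IER3 (rho 0.597), 0.565 for JUN (rho 0.482), 0.557 for EGR1 (rho 0.484), 0.546 for JUND (rho 0.529) and 0.469 for FOSL2 (rho 0.417), each with a permutation p of 1e-05, the smallest that 100000 permutations can give (adjusted p = 1.67e-05 over 10 genes). Without the 2 compounds farthest from the median on plate A these values were 0.768, 0.623, 0.494, 0.527, 0.531 and 0.408. FOS (r = 0.254, rho 0.176), FOSB (r = 0.263, rho 0.150) and IER2 (r = 0.384, rho 0.174) matched less closely, and without the 2 farthest compounds r was 0.147, 0.217 and 0.128. Their permutation p for r were 6.20e-04, 4.20e-04 and 0.00109 (adjusted 7.75e-04, 6.00e-04 and 0.00121), and for rho 0.0165, 0.0404 and 0.0181 (adjusted 0.0202, 0.0404 and 0.0202). JUNB had r = -0.0251 (permutation p = 0.724, adjusted p = 0.724) and rho 0.226 (permutation p = 0.00196, adjusted p = 0.00280), with r = 0.139 without the 2 farthest. Within set PS1 alone r was 0.847 for FOSL1, 0.745 for IER3 and 0.257 for JUNB, and within PS4 0.743, 0.713 and -0.138. Pearson's r for IER2 rests on the 2 farthest compounds.

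The plates also differed in level. For example, the median of EGR1 over compound wells was 58.9 CPM on plate A of PS4 and 22.2 CPM on plate B, and that of IER3 was 115 CPM on plate A of PS1 and 253 CPM on plate B, so plates were held apart in the fit. Ranges of DMSO wells pool both plates of a set where no plate is named.

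Inhibitors of MEK, the kinase that activates ERK, moved genes of this group in a shared direction across compounds. As a class of 5 (cobimetinib, trametinib, pimasertib, refametinib and TAK-733) they lowered EGR1, IER2 and FOSL1 and raised FOSL2, so 4 of 10 genes were called against 17.5% of all genes (7.67% higher and 9.84% lower). Mean log2 changes were -2.28 ± 0.33 for EGR1 (adjusted p = 5.5e-10), -0.94 ± 0.20 for IER2 (adjusted p = 5.7e-05), -0.88 ± 0.10 for FOSL1 (adjusted p = 3.0e-15) and 1.00 ± 0.14 for FOSL2 (adjusted p = 1.1e-09). The signs for FOSL1, EGR1 and IER2 were negative, and for FOSL2 positive, in 5 of 5 compounds. JUN, JUNB, JUND and IER3 had class means of 0.27 ± 0.11, 0.34 ± 0.28, 0.24 ± 0.16 and 0.24 ± 0.11, none called in edgeR. Limma-voom called 6 genes, the same 4 with FOSB and IER3. All 4 calls held with plates not held apart in the fit, and IER2 alone was not called without plates B (-0.70, adjusted p = 0.064).

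EGR1 fell far under its DMSO wells with 3 MEK inhibitors of set PS4, where the DMSO wells were at 91.9 and 56.7 CPM on plate A and 22.3 and 16.3 CPM on plate B. Untreated wells were at 31.5 and 20.05 CPM on plate A and 28.25 and 2.90 CPM on plate B. Over both sets EGR1 in DMSO against untreated wells had 0.51 ± 0.27, not called (adjusted p = 0.41, Wald test). The part of the vehicle in these falls was not tested. TAK-733 at 0.268 µM had 3.63 CPM on plate A and 4.23 CPM on plate B, a log2 change of -3.55 ± 0.63 (adjusted p = 3.0e-06). Pimasertib at 0.911 µM had 5.71 and 5.61 CPM, and refametinib at 2.289 µM had 7.54 and 2.55 CPM. All of these wells held between 2 and 7 counts. In set PS1, where the DMSO wells were at 18.0, 6.19, 32.3 and 20.9 CPM, trametinib at 0.036 µM had 15.4 and 17.6 CPM and cobimetinib at 0.5 µM had 2.37 and 8.50 CPM, neither called. Doses and sets differed, so the compounds are set side by side and were not compared with each other.

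FOSL1 and FOSL2, sister Fos genes, went in opposite directions under MEK inhibition. Refametinib had FOSL1 at 88.3 and 57.4 CPM, under DMSO wells of 277, 221, 210 and 201 CPM (log2 change -1.47 ± 0.20, adjusted p = 5.2e-11). In the same wells FOSL2 was at 247 and 417 CPM, over DMSO wells of 136, 77.9, 192 and 101 CPM (log2 change 1.54 ± 0.23, adjusted p = 8.7e-09). Trametinib had FOSL1 at 218 and 215 CPM, under all DMSO wells of its set, which lay between 309 and 432 CPM, and FOSL2 at 204 and 258 CPM, over DMSO wells of 61.9 to 85.4 CPM. Cobimetinib had FOSL2 at 155 and 144 CPM. Pimasertib and TAK-733 had FOSL2 at 156 and 154 CPM on plate A, above both DMSO wells of that plate, and at 174 and 159 CPM on plate B, between its DMSO wells, and neither was called. They had FOSL1 at 107 to 133 CPM, below all 4 DMSO wells. FOS and FOSB were at 0 counts in both wells of refametinib and of pimasertib. With refametinib totals of 928218 and 783620 counts, 0 allows up to 3.23 and 3.83 CPM. Such limits cover counting error only. The DMSO wells of the set had FOSB at 2.59 and 7.08 CPM on plate A and 2.97 and 6.25 CPM on plate B, so the lower well of each plate is under the limit. FOS reached 5.67 CPM in DMSO, with 2 of 4 wells at 0. FOSB with refametinib was called (adjusted p = 0.0421), while FOS was not. FOSB changes of -4.67 with pimasertib, -1.51 with cobimetinib, -0.37 with TAK-733 and 0.39 with trametinib were not called. The share of all genes called was 5.22% for trametinib, 2.82% for cobimetinib, 9.68% for pimasertib, 12.0% for refametinib and 8.17% for TAK-733.

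Of the 5 lists, 4 of 52 genes were higher and 17 lower with the MEK class, where 17.5% of all genes were called. The median log2 change of the list genes was -0.31 against -0.04 over all genes. DUSP6, the ERK phosphatase that ERK itself induces, had -3.58 ± 0.20, and the collagenase gene MMP1 -2.03 ± 0.26. Of the 12 AP-1 and EGR targets, 9 were lower and 2 higher, the latter being MMP3 at 1.25 ± 0.12 and THBS1 at 1.23 ± 0.45. DMSO wells themselves had THBS1 lower than untreated wells, at -1.625 ± 0.463 (adjusted p = 0.0201, Wald test). The part of this in the rise of THBS1 was not tested.

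**Figure D4:**
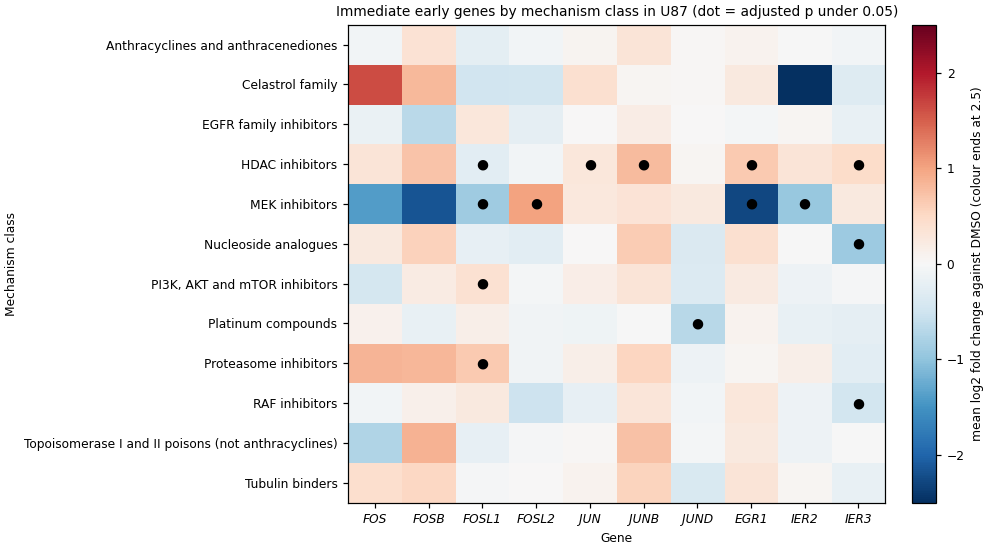
Mean log2 fold change against DMSO (colour, ends at 2.5 in either direction) of the 10 genes (x axis) for 12 mechanism classes of compounds in U87 (y axis); a dot marks an adjusted p under 0.05. The row of MEK inhibitors holds the darkest called cell, EGR1 at -2.28, and calls of opposite sign for FOSL1 at -0.88 and FOSL2 at 1.00.

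Over 12 mechanism classes, 14 of 120 pairs of a class and a gene were called, against 5.98% of all such pairs, and 4, those of the MEK class, with plates not held apart. The 8 HDAC inhibitors, which raise histone acetylation, had 5 of 10 genes called (21.4% of all genes, 8.29% higher and 13.2% lower). Class means were 0.78 ± 0.25 for JUNB, 0.65 ± 0.23 for EGR1, 0.45 ± 0.10 for IER3, 0.28 ± 0.10 for JUN and -0.27 ± 0.09 for FOSL1. Without romidepsin, the other 7 compounds had simple means of 0.630 for JUNB, 0.304 for EGR1, 0.614 for IER3, 0.274 for JUN and -0.0172 for FOSL1. JUNB was above 0 in 7 of 7, but its median over all 184 compounds was itself 0.39, so a value above 0 is not particular to this class. None of the 5 HDAC calls held with plates not held apart or without plates B, and only IER3 was called without plates A. EGR1 was not called without wells of low depth (0.52, adjusted p = 0.094), FOSL1 not under RLE scaling (-0.19), and JUN not with untreated wells added to the controls (0.09). IER3 was higher with resminostat at 4.437 µM (524 and 346 CPM), PCI-24781 at 0.339 µM (469 and 277 CPM) and pracinostat at 0.42 µM (391 and 286 CPM), over DMSO wells of 229, 188, 162 and 151 CPM. These 3 log2 changes were 1.39 ± 0.17, 1.12 ± 0.18 and 1.04 ± 0.18, and rocilinostat at 1.541 µM, with 224 and 163 CPM, was not called. The share of all genes called was 12.8%, 7.44% and 6.15% for the first 3. Of the 5 lists, 9 of 52 genes were higher and 6 lower with the HDAC class. The largest rises were THBS1 at 1.77 ± 0.43 and IL8 at 1.02 ± 0.08, and the largest falls PLAU at -2.05 ± 0.16 and IER5L at -1.17 ± 0.24. Against untreated wells, DMSO wells had THBS1 at -1.625 ± 0.463 and PLAU at 0.97 ± 0.13 on the log2 scale. The part of this in the changes of THBS1 and PLAU was not tested.

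Romidepsin, at 0.697 µM, moved 8 of 10 genes, more than any other compound, where 24.1% of all genes were called. EGR1 was at 108 and 214 CPM, against 6.19 to 32.3 CPM in DMSO (log2 change 3.05 ± 0.40, adjusted p = 1.2e-11). FOS had 33 and 38 counts, which is 123 and 104 CPM, against at most 6.19 CPM in DMSO. FOSB, JUNB, JUND and IER2 also rose, whereas FOSL1 was at 101 and 82.2 CPM against 309 to 432 CPM (log2 change -2.01 ± 0.22, adjusted p = 1.3e-15) and IER3 had -0.67 on the log2 scale (adjusted p = 0.0188). The wells held 267876 and 364834 counts, and in the fit without wells of low depth JUND with romidepsin was no longer called.

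Among other compounds, 4 -METHOXYCHALCONE at 9.868 µM moved 6 genes (11.9% of all genes called), with EGR1 at 504 and 411 CPM, the highest EGR1 change in the screen at 3.58 ± 0.33 (adjusted p = 3.6e-21). FOSB was at 203 and 170 CPM there against 2.59 to 7.08 CPM in DMSO, a log2 change of 5.24 ± 0.60, and JUNB at 159 and 40.3 CPM against 10.0 to 35.4 CPM. IER3 was lower there, at 81.9 and 80.5 CPM. FOS had 13 and 5 counts, which is 56.0 and 14.4 CPM. FOSB was also raised by IPAG (54.9 and 42.0 CPM, 4.49% of all genes called) and 2,6-DIMETHOXYQUINONE (50.1 and 30.7 CPM, 2.17% called). OTX015, which blocks BET bromodomains, moved 5 genes (15.2% called), with JUND at 291 and 241 CPM against 58.0 to 171 CPM and JUNB at 55.1 and 46.5 CPM. Vandetanib had JUND at 172 and 154 CPM against 47.2 to 117 CPM (1.55% called). JUND was lower with raltitrexed (25.1 and 47.2 CPM, 1.23% called), picoplatin (38.5 and 39.1 CPM, 1.79% called) and HOMIDIUM BROMIDE (53.5 and 28.2 CPM, 9.02% called), and picoplatin raised EGR1 to 252 and 101 CPM.

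JUN was higher with the PI3K and mTOR inhibitor PF-04691502 (545 and 475 CPM against 109 to 315 CPM, 3.20% of all genes called) and with pentostatin (366 and 355 CPM against 151 to 210 CPM, 0.384% called). FOSL1 was higher with RS 17053 hydrochloride (340 and 493 CPM, 1.38% called) and P276-00 (494 and 515 CPM, 2.09% called) against 201 to 277 CPM. FOSL2 was lower with BENZALKONIUM CHLORIDE (53.4 and 56.1 CPM, 4.12% called) and PRISTIMERIN (77.8 and 40.2 CPM, 1.76% called) against 77.9 to 192 CPM. Mithramycin A had IER2 at 127 and 145 CPM against 42.7 to 78.4 CPM (15.5% called), and SCIO 469 had IER3 at 123 and 51.1 CPM against 151 to 229 CPM (1.55% called). In all of these pairs both wells lay beyond the 4 DMSO wells.

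Single genes were also called for other classes. FOSL1 was higher with PI3K, AKT and mTOR inhibitors, at 0.38 ± 0.10 (adjusted p = 0.0107; 2.71% of all genes called, 0.929% higher). JUND was lower with platinum compounds, at -0.69 ± 0.18 (adjusted p = 0.0105; 2.11% called, 1.21% lower), and IER3 with RAF inhibitors, at -0.46 ± 0.12 (adjusted p = 0.0144; 2.17% called, 1.44% lower). With untreated wells added to the controls, JUND with platinum compounds had -0.44 and was not called. The calls for these 3 classes were lost with plates not held apart and with plates A or plates B left out. Anthracyclines, other topoisomerase poisons, tubulin binders and EGFR family inhibitors had 0 genes called in edgeR and in limma-voom, with 1, 2, 2 and 1 at an unadjusted p under 0.05 in edgeR, where 4.88%, 7.36%, 1.78% and 0.911% of all genes were called.

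Some of the steepest falls came from shallow wells. Fludarabine wells held 76948 and 95412 counts, with IER3 at 1 and 0 counts and FOSL1 at 8 and 5 counts. A count of 0 allows up to 31.4 CPM in the second well, below the 163 to 266 CPM of IER3 in DMSO. The nucleoside analogues as a class had IER3 at -0.92 ± 0.23 (1.80% of all genes called, 1.30% lower; 12.0% for fludarabine alone), and at -0.20 without wells of low depth, which was not called. CELASTROL wells held 45384 and 43487 counts, with IER2 at 0 and 0 counts. There 0 allows up to 66.1 and 69.0 CPM, which spans nearly all of the 38.7 to 69.4 CPM of the DMSO wells, so a single well does not show a fall of IER2, which the fit called over both wells (adjusted p = 0.0120; 10.7% of all genes called). CELASTROL at 8.369 µM had JUN at 24 and 30 counts, or 529 and 690 CPM. Its relatives DIHYDROCELASTROL at 9.186 µM and PRISTIMERIN at 0.855 µM had JUN log2 changes of 0.31 and -0.22, not called, and the class of 3 had 0 genes called (edgeR, 2 at an unadjusted p under 0.05, and 0 in limma-voom; 3.67% of all genes called).

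Bortezomib was given to both lines, at 0.044 µM for 6 h in BT20 and at 0.01 µM for 24 h in U87, so values stand side by side. FOSL1 rose in U87 from DMSO wells of 309 to 432 CPM to 640 and 717 CPM, a log2 change of 1.10 ± 0.16 (adjusted p = 9.1e-10; 13.6% of all genes called), next to 1.81 in BT20. JUN, the gene with the highest rise in BT20, was at 250 and 128 CPM in U87 against 151 to 210 CPM, with a log2 change of 0.29 ± 0.20 that was not called. JUND, EGR1 and IER3 in U87 had changes of 0.07, 0.03 and 0.03, and JUNB, which fell in the BT20 pools, was at 41.0 and 47.1 CPM against 8.98 to 30.9 CPM (1.25 ± 0.44, adjusted p = 0.0366). The 3 proteasome inhibitors as a class raised FOSL1 by 0.64 ± 0.12 (adjusted p = 2.6e-05), the only gene of the 10 called there (5.45% of all genes, 2.51% higher). This call was lost with plates not held apart (0.67) and without plates A (0.49).

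The vehicle itself was compared with no treatment in U87. DMSO wells had FOSL2 higher by 0.52 ± 0.17 (adjusted p = 0.0479) and JUN lower at -0.36 ± 0.11 (adjusted p = 0.0481) than untreated wells, 2 of 10 genes against 3.63% of all genes (1.23% higher and 2.39% lower). JUN was at 109 to 315 CPM in 8 DMSO wells and 173 to 287 CPM in 8 untreated wells, so the groups overlapped. Both calls were lost with limma-voom, with plates not held apart and with either plate of each set left out. The vehicle difference did not itself differ between sets PS1 and PS4 for any of the 10 genes in edgeR (0% of all genes called, 0 of the 10 at an unadjusted p under 0.05) or limma-voom.

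The cell lines differed widely in these genes. Untreated U87 cells had 8 of 10 genes higher than untreated LnCAP cells, against 44.5% of all genes called and 21.3% called higher. Wells were summed by plate for this test, with 4 U87 plates and 2 LnCAP plates, the latter being repeats from the same lysates. Per the study's methods, part of each LnCAP lysate went to capture on an oligo(dT) plate and the rest to column extraction with bead purification, and the labels do not say which plate had which. The line cannot be told apart from the plate, the culture medium and the handling, since the labels describe serum and freezing for BT20 and U87 only, and the study's methods describe lysis without freezing for U87. Marker genes of each line followed the labels: summed over 5 markers, the median was 2721 CPM in BT20 wells for the BT20 list, 3585 CPM in U87 wells for the U87 list and 1621 CPM in LnCAP wells for the LnCAP list, with the exceptions of KRT19, which had a median of 0 CPM in BT20, and CDH1, a gene of the BT20 list with a median of 129.5 CPM in BT20 and 310.5 CPM in LnCAP.

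FOSL1 was the gene of the 10 that differed most between U87 and LnCAP. In U87 untreated wells it had 202, 314 and 430 CPM as the lowest, median and highest values and 201, 293 and 432 CPM in U87 DMSO wells. BT20 DMSO wells had a median of 61.8 CPM, while on LnCAP plates A1 and A2 FOSL1 was at 0 counts in 85 and 61 of 96 wells. The order U87, BT20, LnCAP was separated at each step by more than the larger standard deviation (SD) of the neighbours, whereas U87 with and without DMSO were within it. The log2 difference between U87 and LnCAP was 8.81 ± 0.64 (adjusted p = 4.6e-09). EGR1 was at 0 counts in 90 and 89 of 96 LnCAP wells, against medians of 18.5 CPM in untreated U87 and 18.2 CPM in BT20 DMSO wells. Its log2 difference between U87 and LnCAP was 6.44 ± 0.70 (adjusted p = 5.4e-07), and U87 and BT20 were within their spread.

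JUN was highest in U87, and the order of BT20 and LnCAP depended on the totals used. Medians were 221 CPM in untreated U87, 172 CPM in U87 DMSO, 46.0 and 25.5 CPM on LnCAP plates A2 and A1, and 16.9 CPM in BT20 DMSO wells, the last 2 within the larger SD. On the BT20 plate 6 symbols held 41.1% of counts, and with these left out of the totals the BT20 median was 27.7 CPM, above plate A1. The LnCAP plates, made from the same lysates, differed by more than their SD for JUN, JUND and IER3, and plate and RNA isolation cannot be told apart there. FOSB, FOS, FOSL2, IER3 and IER2 were also higher in U87 than LnCAP, at 3.92 ± 0.73, 3.20 ± 0.95, 2.88 ± 0.49, 1.81 ± 0.37 and 0.91 ± 0.33. FOS was near the detection limit in both lines. It had 19 counts over 8 untreated U87 wells, 3 of them at 0. LnCAP plates A1 and A2 held 12 and 15 counts of FOS, with 88 and 84 of 96 wells at 0. In its order each group was within the larger SD of the next. JUNB and JUND had -0.79 ± 0.41 and -0.53 ± 0.37, with 95% intervals of -1.60 to 0.01 and -1.26 to 0.20, and were not called. IER2 was not called when either LnCAP plate or U87 plate B of PS1 was left out, with values of 0.81, 1.07 and 0.93.

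BT20 DMSO wells were summed to 1 sample, from a single plate, so the SEs and calls rest on the spread between plates of the other lines. They had 4 of 10 genes lower than U87 DMSO wells and 0 higher, against 39.9% of all genes called and 20.0% lower. Log2 differences were -2.94 ± 0.73 for JUN, -1.62 ± 0.58 for FOSL1, -1.49 ± 0.45 for IER2 and -1.23 ± 0.47 for IER3. Without U87 plate A of PS4, JUN alone was called, and without plate B of PS1, JUN and IER2. IER3 was not called either when a LnCAP plate was left out of the fit.

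**Figure D5:**
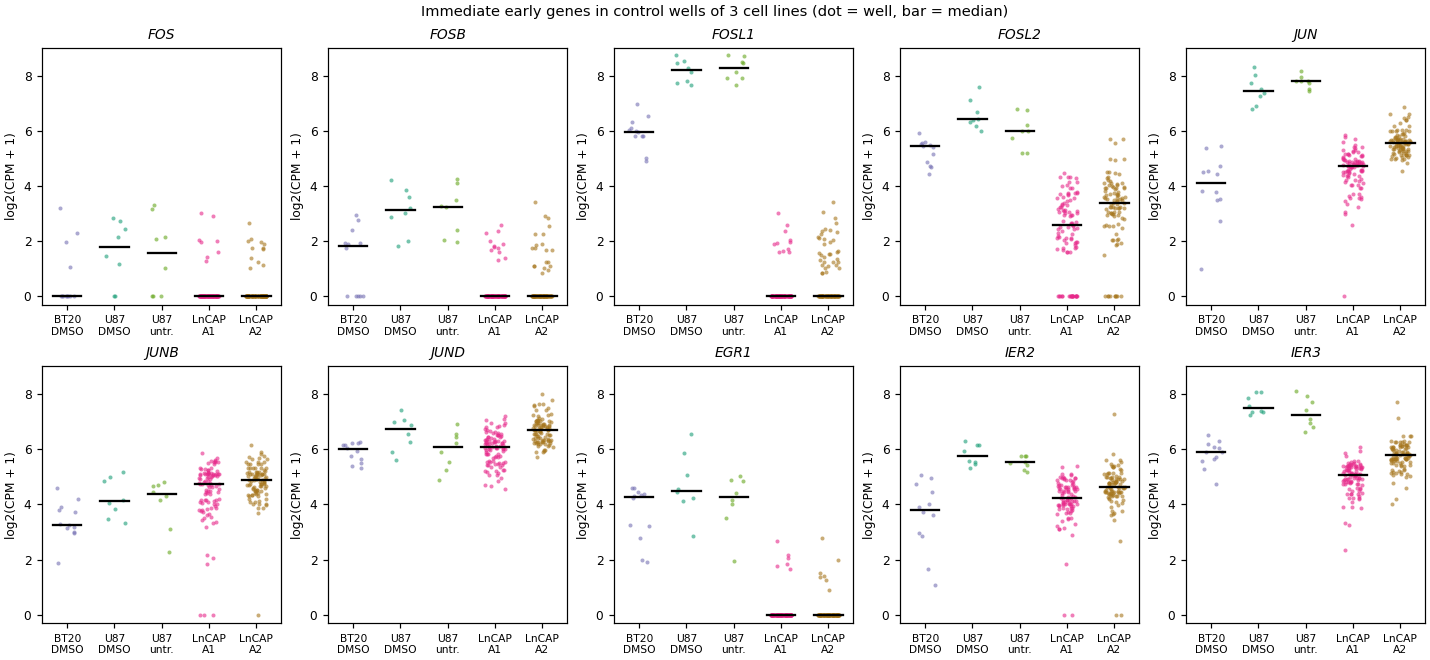
Level as log2(CPM + 1) of the 10 genes (one panel a gene) in control wells of BT20 (12 DMSO), U87 (8 DMSO, 8 untreated) and LnCAP (96 untreated wells on each of plates A1 and A2); dots are wells and bars are medians. FOSL1 and EGR1 lie at or near 0 in LnCAP, and the medians of JUN are highest in U87.

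Genes with profiles most like those of these factors were read from log2 changes over the 184 U87 compounds, among 5728 genes of at least 20 CPM. Compounds of a set share DMSO wells and plates, so the correlations are a description. IER2 was alike to ERCC1 (r = 0.771) and MBD1, a value that includes the -7.80 of CELASTROL wells with 0 counts. IER3 was most like BET1L (r = 0.728), the cytokine gene IL1A (r = 0.727) and ATG4C, values that include the -5.20 of shallow fludarabine wells with 1 and 0 counts of IER3. FOSL1 was most like the replication helicase gene MCM5 (r = 0.653), LRR1 and FMNL3. EGR1 was most like ETV5, an ETS factor gene, NR1D1 and DNAJB1. FOSL2 was most like FAM127A (r = 0.517), COL1A2 and ARF3, and JUNB most like CALCOCO1 (r = 0.460), SAT1 and ARC. JUND was most like H1FX (r = 0.440), PNPLA2 and FADS3, and JUN most like SRP14 (r = 0.375), CETN2 and RIOK3. FOSL1 and JUN had r = -0.290 with each other and FOSL1 and FOSL2 0.0405, so neither was among the 3 most alike of FOSL1.

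Genes of the 5 lists outside the 10 were called in 5.57% of 9568 compound pairs in U87, against 2.64% of all gene and compound pairs. The share was 15.7% for targets of AP-1 and EGR, 3.80% for AP-1 partners, 3.55% for feedback regulators, 2.64% for other immediate early factors and 0.543% for upstream kinases and factors. Among the targets PLAU, the gene of urokinase, was called for 57 compounds, with 55 lower. All compounds of a set share the same DMSO wells, and DMSO wells had PLAU higher than untreated wells. That log2 difference was 0.97 ± 0.13 (adjusted p = 5.3e-09, Wald test), and its part in the 55 falls was not tested.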

How the data were processed

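PLATE-Seq and TruSeq libraries were deposited as raw read counts per gene symbol. The authors assigned reads to wells by barcode, aligned them with bwa-mem to UCSC known genes (hg19, the build also given in the submitters' processing notes) and counted uniquely mapped sense-strand reads; no molecular identifiers are named, and how the TruSeq counts were made is not given in the sources used here. The 92 spike-in rows were left out of all 8 tables.

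Counts were tested with edgeR 4.0.16 (TMM, filterByExpr, robust quasi-likelihood; R 4.3.3): each BT20 drug with DMSO, all 16 pools in a single fit, and plate sums for cell lines. The 384 U87 wells were fitted together with plate effects per gene held as offsets; classes and vehicle were tested by Wald tests in that fit. Numbers of BT20 wells marked no pairing (runs of 8 wells, mean correlation of deviations 0.00461, 0 of 84 pairs over 0.1). U87 plates A and B are the block of that fit: plate differences in DMSO and in compound wells correlated at 0.85 and 0.861 across genes in the 2 sets.

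DESeq2 1.42.0, limma-voom (limma 3.58.1), RLE scaling, no filter and other sample choices were tried as alternatives. Scripts were tested on simulated counts. The text names all 10 genes; per gene, up to 3 called compounds a side by size with both wells beyond the 4 DMSO wells; of other list genes called, the 2 largest a side; and the 3 most alike genes of at least 20 CPM. Some genes that this rule names are not reported here. The genes, lists and classes were chosen with earlier results of these data known. Compounds with several calls, and class members, were also named after their values were seen. Replicate wells and pools are not stated to be separate cultures, so p-values measure the spread between these samples.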

Additional observations from a re-analysis of the deposited data

How the results depend on the processing

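No named value changed sign under any alternative run. Over all alternatives, 1670 recomputed values of named genes kept their direction and call, 194 lost the call and 6 levels moved. The U87 counts depended on the replicate block, the plate term: without it 30 pairs of a compound and a gene were called in place of 100, 4 pairs of a class and a gene in place of 14, and 0 vehicle differences in place of 2. Leaving out replicates, compound pairs ranged from 32 to 105, class pairs from 5 to 5, vehicle differences from 0 to 0, TruSeq pairs from 29 (without DMSO pool 1) to 42 against 41, U87 against LnCAP from 6 to 8 against 8, and BT20 against U87 from 1 to 4 against 4. RLE scaling left 2 genes called for BT20 against U87, and limma-voom 0 for the vehicle. The cause of these moves was not tested beyond the fewer samples. On the BT20 plate, 4 calls became 6 with DESeq2 or with no filter, 5 with all wells in a single fit, and 4 with the replicate block of 8-well runs, RLE scaling or low wells left out. Leaving 6 dominant symbols out of the BT20 totals moved the DMSO medians of 6 genes by more than 1 SD, which are the 6 levels. At PLATE-Seq depth FOS, FOSB and JUNB were too low to test in BT20, and falls of low genes could not be read from single shallow U87 wells.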
